A study of Homo sapiens with 4 samples.

Results

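The mitosis genes described here are 47 genes whose products drive a cell from the end of DNA replication through chromosome segregation and cytokinesis. They were taken by name from the gene tables of 4 RNA sequencing libraries and make up 47 of 43622 listed genes. All 47 were found, and all 47 were among the 15273 genes kept after a filter on low counts. The lines sequenced, A549 and H1993, are established from human lung adenocarcinomas, and the labels call both lung epithelial cells. Each line was grown as spheroids, in which cells form rounded aggregates, and as an adherent layer. The 4 groups were A549 spheroid, A549 adherent, H1993 spheroid and H1993 adherent, with 1 library each. The labels name no treatment, allele or time for any of the 4. The study's design text states an interest in triacylglycerol synthesis in the 2 cultures and treats spheroids as enriched in cancer stem cells.

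Entry into mitosis is driven by CDK1 bound to cyclin A or B and is followed by chromosome condensation, attachment of kinetochores to spindle microtubules, and destruction of cyclin B and securin by the anaphase-promoting complex. Most genes that encode these proteins are transcribed late in the cell cycle. In resting cells the DREAM complex, built on the MuvB core, holds them off, and in dividing cells MuvB joins B-MYB (encoded by MYBL2) and FOXM1 to switch them on. MuvB binds a short promoter element named the cell cycle homology region (CHR), and the factor NF-Y binds CCAAT boxes that often lie upstream of it. Their mRNAs are widely used as markers of dividing cells, in lung cancer lines as elsewhere.

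RefSeq promoter windows (GRCh38.p14, 250 bases before to 50 bases after the annotated start) were at hand for 40 of the 47 genes. The 5 below are shown because they carry the elements that the members share and because 3 of them, MKI67, ECT2 and HJURP, belong to genes at the ends of the A549 comparison. CCNB2 encodes cyclin B2, PLK1 a kinase of mitotic entry, MKI67 the proliferation antigen Ki-67, ECT2 an exchange factor for RhoA in cytokinesis, and HJURP the chaperone of the centromeric histone CENP-A. Only the 250 bases before the start are printed, 5′ to 3′ on the gene's strand, with CHR letters (TTTGAA or TTTAAA) and CCAAT boxes (CCAAT, or ATTGG where the box lies on the other strand) in capitals. They lie at chr15:59104896-59105145 (plus strand), chr16:23678639-23678888 (plus strand), chr10:128126424-128126673 (minus strand), chr3:172750476-172750725 (plus strand) and chr2:233854536-233854785 (minus strand).
CCNB2: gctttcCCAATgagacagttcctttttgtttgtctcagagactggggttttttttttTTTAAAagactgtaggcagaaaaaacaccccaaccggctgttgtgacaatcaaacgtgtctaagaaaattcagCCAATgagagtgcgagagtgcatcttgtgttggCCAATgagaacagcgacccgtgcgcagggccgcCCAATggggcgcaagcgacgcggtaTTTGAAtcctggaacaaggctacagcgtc
PLK1: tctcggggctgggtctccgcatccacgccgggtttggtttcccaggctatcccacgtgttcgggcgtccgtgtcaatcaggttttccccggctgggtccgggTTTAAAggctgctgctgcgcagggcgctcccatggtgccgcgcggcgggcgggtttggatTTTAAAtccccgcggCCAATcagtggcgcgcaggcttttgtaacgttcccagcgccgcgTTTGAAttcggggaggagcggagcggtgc
MKI67: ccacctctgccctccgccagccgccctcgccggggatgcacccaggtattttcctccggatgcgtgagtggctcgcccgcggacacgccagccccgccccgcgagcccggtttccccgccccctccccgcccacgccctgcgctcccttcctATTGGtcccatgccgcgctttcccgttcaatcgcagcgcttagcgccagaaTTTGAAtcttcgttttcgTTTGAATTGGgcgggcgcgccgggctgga
ECT2: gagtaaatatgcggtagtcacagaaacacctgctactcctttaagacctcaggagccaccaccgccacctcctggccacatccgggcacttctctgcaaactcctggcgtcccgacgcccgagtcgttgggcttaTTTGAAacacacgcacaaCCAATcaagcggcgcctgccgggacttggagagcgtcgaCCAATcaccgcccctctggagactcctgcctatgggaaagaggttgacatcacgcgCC
HJURP: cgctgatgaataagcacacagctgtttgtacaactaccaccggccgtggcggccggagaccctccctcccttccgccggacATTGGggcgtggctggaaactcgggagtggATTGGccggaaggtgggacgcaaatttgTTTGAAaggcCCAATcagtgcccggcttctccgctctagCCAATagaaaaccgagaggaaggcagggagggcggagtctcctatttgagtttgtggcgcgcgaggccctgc

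In CCNB2, CCAAT boxes start 120, 87 and 54 bases before the start site and a TTTGAA lies 29 bases before it. PLK1 and MKI67 also have a TTTGAA 29 bases before the start, and in MKI67 that element shares letters with the ATTGG that follows it. In ECT2 and HJURP the TTTGAA lies farther out, at 115 and 111 bases before the start, and ECT2 has another one 34 bases after the start, outside the printed stretch. The last capitals of the ECT2 line are the first letters of a CCAAT box that runs across the start.

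Searched on both strands, TTTGAA or TTTAAA occurred in the windows of 33 of 40 members (82.5%), against 24.26% of the windows of all 27305 genes in the table and 15.53% of the 10860 windows of genes kept here. CCAAT was present in 30 of 40 members (75%), against 35.7% of all genes, and both elements in 25 (62.5%), against 9.493%. The letters used for E2F sites (TTTCCCGC, TTTGGCGC, TTTGCCGC or TTTCGCGC) were found in 4 members (10%). The shares were 3.325% of all genes and 5.175% of the genes kept here. A CHR lay within 70 bases before the start or downstream of it in 30 members. The 7 windows with neither TTTGAA nor TTTAAA were those of AURKB, BUB1, CCNA2, CDC25C, DIAPH3, MYBL2 and NEK2. A CHR spelled otherwise, or near another start of the gene, was not searched for, so these genes may still have one. The AURKB window, which ends at position 8210475, lies inside that gene's listed span, which runs to 8210600 on the minus strand. Bases upstream of that listed end were therefore not searched for AURKB. The windows of PLK1 and CENPA also lie inside the listed spans of these genes, so bases upstream of those spans were not searched either. These are matches of letters in 1 window per gene and not measured binding.

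Before the results on culture, the libraries themselves need 1 remark. The library labelled H1993 adherent was more like the A549 adherent library than like H1993 spheroids, with a Pearson correlation of log2 CPM across 15273 genes of 0.947 against 0.846, while the A549 pair reached 0.899. Its label is therefore in doubt, it is called the library labelled H1993 adherent throughout, and each comparison that uses it rests on that label. Exon reads per library lay between 15331121 and 17681746. The share of gene reads in introns lay between 8.43% and 11.6%, and mitochondrial genes took between 4.57% and 8.29% of exon reads. The epithelial markers EPCAM, CDH1, KRT7, KRT8, KRT18 and KRT19 were all at 10 TPM or more in each library. The summed TPM of 7 fibroblast markers was between 6.26 and 33.3, and that of 7 blood cell markers between 34.5 and 141.2, most of it CD68. CD68 was at 131.3 TPM in A549 spheroids, against 25.7 TPM in A549 adherent cells. The epithelial markers summed to 4100 TPM in A549 spheroids, against 8315 TPM in A549 adherent cells, and to 10200 TPM in H1993 spheroids, against 3109 TPM in the library labelled H1993 adherent. The part of these sums in the results below was not tested.

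The members together drew 5249 exon reads in A549 spheroids, against 80774 in A549 adherent cells. H1993 spheroids had 40659, against 71444 in the library labelled H1993 adherent. Scaled to the library's exon reads (CPM), that is 296.9 in A549 spheroids, against 5159 in A549 adherent cells, and 2652 in H1993 spheroids, against 4302 in the library labelled H1993 adherent. The A549 spheroid library thus stood apart from all the others.

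In deposited TPM, which scales reads by exon length, the median member was at 1.25 in A549 spheroids, against 74.2 in A549 adherent cells. It was at 34.3 in H1993 spheroids, against 54.3 in the library labelled H1993 adherent. In A549 spheroids 18 of 47 members were below 1 TPM and 3 reached 10 TPM, whereas all 47 reached 10 TPM in A549 adherent cells. The 3 were ECT2, HJURP and cyclin B1 (CCNB1). No member was at 0 reads in any library, but 16 members had fewer than 20 reads in A549 spheroids, the fewest being 2 for SPC25, a subunit of the NDC80 kinetochore complex.

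The order of the levels differed too. In A549 adherent cells the 5 highest TPM values belonged to TOP2A, CCNB1, UBE2C, ECT2 and NUSAP1, and in the library labelled H1993 adherent the same 5 genes led. In H1993 spheroids they were UBE2C, CCNB1, CDK1, CDC20 and TPX2. In A549 spheroids ECT2 alone made up 31.2% of the members' summed TPM and HJURP brought that to 41.9%, while the first gene took 7.97% in A549 adherent cells, 13.3% in H1993 spheroids and 8.28% in the library labelled H1993 adherent.

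**Figure D1:**
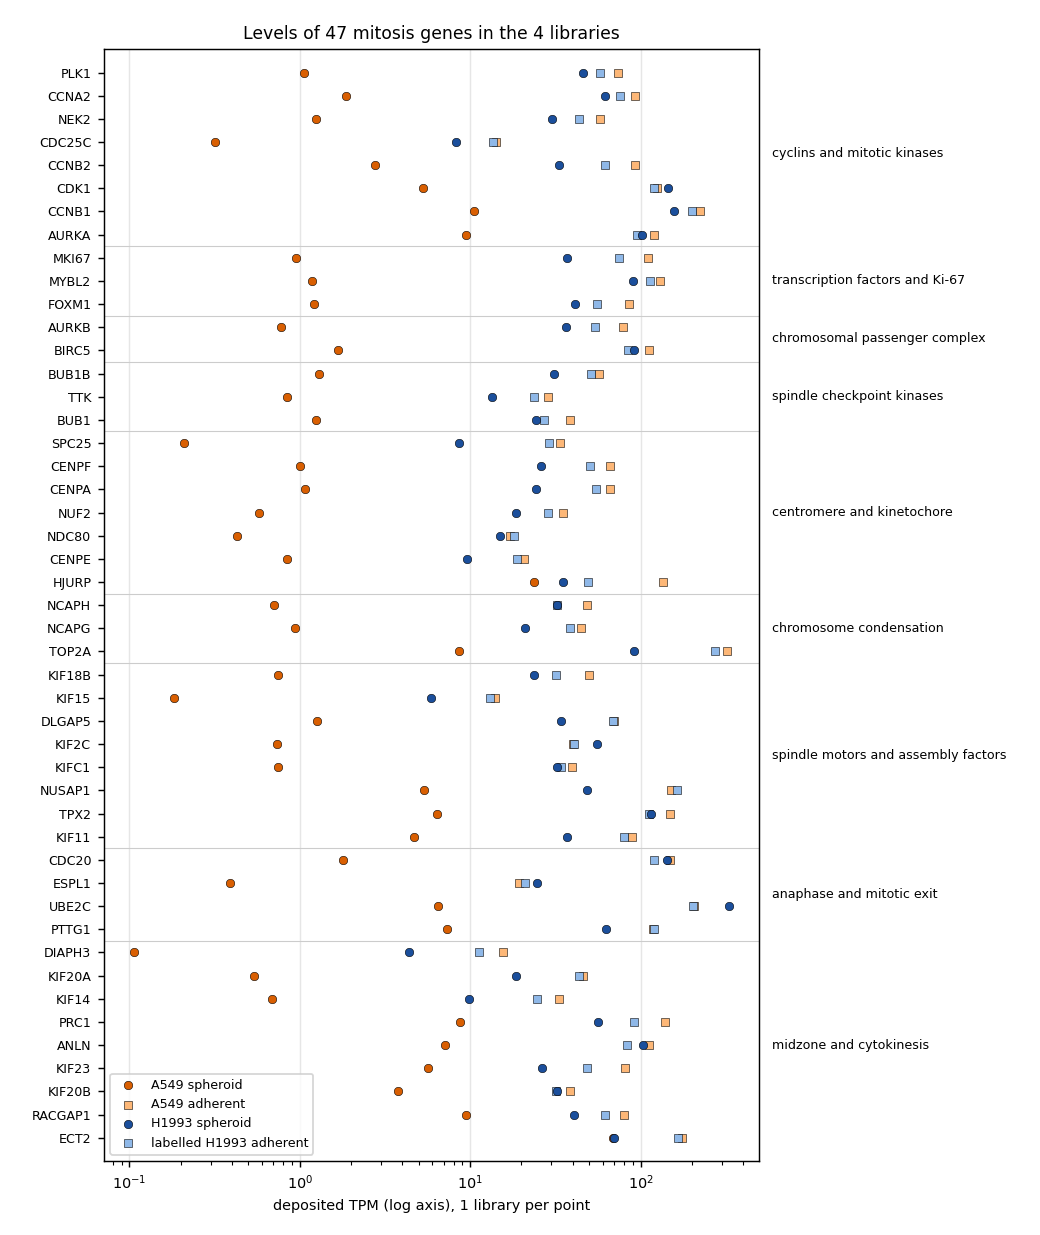
Deposited TPM (log axis) of each of the 47 genes in the 4 libraries, grouped by role. The A549 spheroid points lie to the left of the others for nearly all genes, with ECT2 at 68.9 TPM and HJURP at 23.8 TPM at the right end of that library, and the other 3 libraries overlap.

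Every member was lower in A549 spheroids than in A549 adherent cells. For all 47 the decrease was 2-fold or more and its 95% counting interval excluded no change, a rule that 10.3% of the 15273 genes met in this direction and 12.4% in the other. The median log2 fold was -5.28, which leaves 2.57% of the adherent level, and the quartiles were -5.79 and -4.42. Each culture was 1 library, so the intervals cover counting error only and there is no test of culture in A549 alone. In bulk RNA, fewer dividing cells and less of these mRNAs per dividing cell cannot be told apart.

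The transcription factors and Ki-67 were the role list with the lowest median log2 fold, -6.51. MKI67 had 63 exon reads in A549 spheroids, against 6509 in A549 adherent cells, a log2 fold of -6.71 (-7.14 to -6.40), the lowest of all members. MYBL2, the B-MYB factor that joins MuvB, had 17 reads against 1656 (-6.51), and FOXM1, the forkhead factor of late cell cycle transcription, 31 against 1919 (-5.92). Both members that belong to the chromosomal passenger complex, which corrects faulty attachments at centromeres, followed closely. Its kinase AURKB had 9 reads in A549 spheroids, against 812 in A549 adherent cells (-6.27), and its survivin subunit BIRC5 had 33 against 1966 (-5.87).

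Cyclins and mitotic kinases had a median log2 fold of -4.90. PLK1 was at 1.05 TPM in A549 spheroids, against 74.2 TPM in A549 adherent cells (log2 fold of reads -5.92). CDK1, the kinase of mitotic entry, was at 5.29 TPM against 125.3 TPM (-4.43), and its partner CCNB1 at 10.5 TPM against 223.0 TPM (-4.27). AURKA, the centrosomal Aurora kinase, was the least reduced of this list, at 9.48 TPM in A549 spheroids, against 120.3 TPM in A549 adherent cells (-3.54). CCNA2 (-5.42), NEK2 (-5.28), CDC25C (-4.91) and CCNB2 (-4.89) lay between. CDC25C, the phosphatase that activates CDK1, rests on 5 reads in A549 spheroids, and its interval runs from -7.02 to -4.14.

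The 3 spindle checkpoint kinases, which delay anaphase until all chromosomes are attached, lay close together, from -5.26 for BUB1B to -4.78 for BUB1, with TTK at -4.84. Kinetochore and centromere genes had a median of -5.56 and a wide spread. SPC25 had 2 reads in A549 spheroids, against 284 in A549 adherent cells, and its log2 fold of -6.21 has an interval from -10.27 to -5.35. The kinetochore proteins CENPF (-5.89), NUF2 (-5.56), NDC80 (-4.90) and CENPE (-4.44), and the histone CENPA (-5.60), lay between SPC25 and HJURP. HJURP had the smallest decrease of this list, with 471 reads in A549 spheroids, against 2367 in A549 adherent cells, a log2 fold of -2.39 (-2.54 to -2.25).

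Chromosome condensation genes were lower to a similar degree. TOP2A, the topoisomerase that untangles sister chromatids, had 286 reads in A549 spheroids, against 9564 in A549 adherent cells (-5.12), and the condensin I subunits NCAPH and NCAPG had log2 folds of -5.77 and -5.36. Spindle motors and assembly factors ranged from -5.80 for KIF18B, a motor at microtubule ends, to -4.13 for KIF11, the motor that pushes spindle poles apart. NUSAP1, which bundles spindle microtubules, was at 5.36 TPM in A549 spheroids, against 151.3 TPM in A549 adherent cells (-4.67). Among genes of anaphase and exit, CDC20, which turns on the anaphase-promoting complex, had 19 reads against 1404 (-6.13). Its ubiquitin-conjugating enzyme UBE2C had 43 against 1225 (-4.83), separase (ESPL1) 18 against 795 (-5.38) and its inhibitor securin (PTTG1) 76 against 1095 (-3.88).

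Midzone and cytokinesis genes had the smallest median decrease, -3.84, and the widest range. DIAPH3, an actin-nucleating formin, had 4 reads in A549 spheroids, against 524 in A549 adherent cells (-6.51), and the midzone motor KIF20A had 11 against 835 (-6.07). At the other end ECT2 had 1965 reads in A549 spheroids, against 4424 in A549 adherent cells, a log2 fold of -1.23 (-1.31 to -1.16). RACGAP1, which with KIF23 forms the centralspindlin complex that recruits ECT2, was at -2.95, KIF20B at -3.22 and KIF23 itself at -3.70. The scaffold ANLN (-3.84), the bundling protein PRC1 (-3.88) and the motor KIF14 (-5.37) completed the list.

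In this pair of libraries the decreases of members thus differed by more than counting error. The counting intervals of 27 of 47 genes excluded the median of all members. Among all 15273 genes, 10571 had intervals that excluded the median of all genes. The intervals leave out variation between cultures, so whether members differ in their decrease beyond that variation was not tested. The 5 members with the smallest decreases were ECT2, HJURP, RACGAP1, KIF20B and AURKA.

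**Figure D2:**
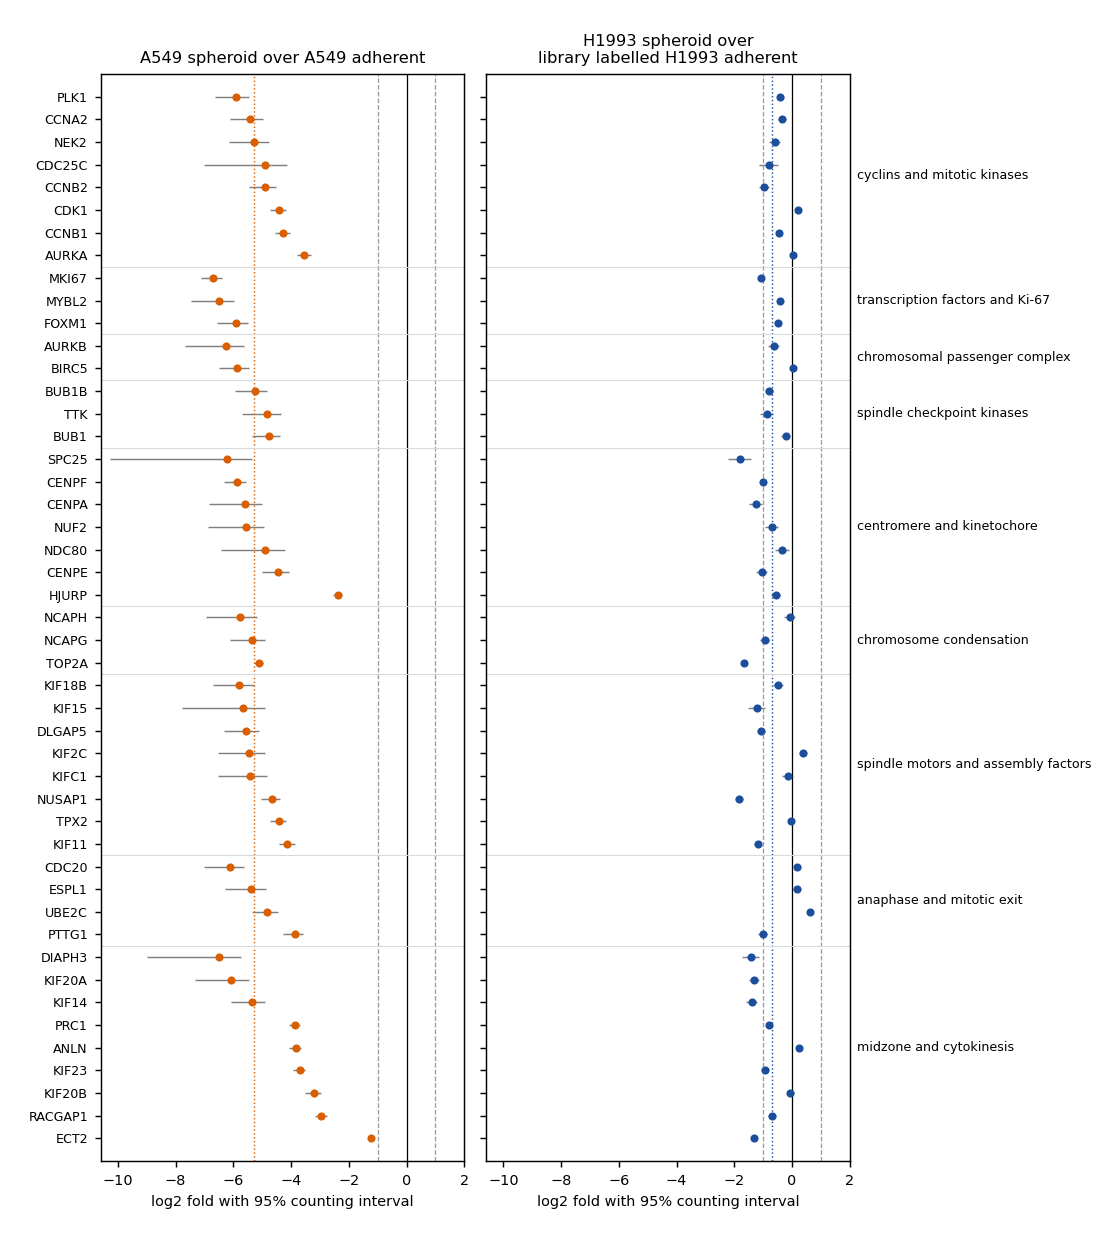
Log2 fold of exon reads, spheroid over adherent, with 95% counting intervals for each member by role in A549 (left) and H1993 as labelled (right). Dotted lines mark the medians of -5.28 and -0.69, and dashed lines mark 2-fold. All A549 points lie beyond 2-fold, with ECT2 at -1.23 nearest to the line, and the H1993 points lie between -1.84 and 0.64.

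Against the library labelled H1993 adherent, H1993 spheroids had 15 members lower, 32 that met neither rule and 0 higher. Over all genes 18% were lower and 17% higher, so the share of members called lower, 15 of 47, stood above the share of all genes, while the median log2 fold of -0.69 left 61.9% of the level in the library labelled H1993 adherent. Whatever the fold, the interval lay below no change in 35 members and above it in 6, against 38.3% and 39.3% of all genes. There was again 1 library per culture and no test of culture in H1993 alone.

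NUSAP1 was the lowest, with 594 reads in H1993 spheroids, against 2413 in the library labelled H1993 adherent, a log2 fold of -1.84 (-1.97 to -1.71). SPC25 had 68 reads against 272 (-1.79), and TOP2A 2510 against 9013 (-1.66). The midzone genes followed, with DIAPH3 at -1.41, KIF14 at -1.38 and KIF20A at -1.31, and ECT2 had 1633 reads in H1993 spheroids, against 4637 in the library labelled H1993 adherent (-1.32). The other members called lower were CENPA (-1.25), KIF15 (-1.22), KIF11 (-1.19), MKI67 (-1.08), DLGAP5 (-1.07), CENPE (-1.05), CENPF (-1.01) and PTTG1 (-1.01). These span the kinetochore, the spindle and the midzone. Of the 8 cyclins and mitotic kinases 0 were called, against 18% of all genes lower. The intervals of 6 of these 8 still lay below no change, and CCNB2, at -0.96, was close to the 2-fold limit.

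Another 6 members lay on the other side of no change, with intervals above it. UBE2C had 1824 reads in H1993 spheroids, against 1329 in the library labelled H1993 adherent, a log2 fold of 0.64 (0.54 to 0.74), and a TPM of 332.4 against 202.7. KIF2C, a motor that takes microtubules apart at kinetochores, had 864 reads against 758 (0.37), and ANLN 2647 against 2569 (0.23). CDK1 (0.20), CDC20 (0.19) and ESPL1 (0.17) were above no change by less. None of the 6 reached 2-fold. The list of anaphase and exit genes was the only role list with a median above 0, at 0.18, which PTTG1 (-1.01) did not share. The intervals of AURKA (0.03), BIRC5 (0.04), TPX2 (-0.03), KIF20B (-0.06), NCAPH (-0.08) and KIFC1 (-0.15) held no change.

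The sizes of the 2 pairs' folds had little in common from gene to gene. Across the 47 members the log2 folds of the A549 pair and of the H1993 pair had a Pearson correlation of 0.06 and a Spearman correlation of 0.12, given as a description, since the genes of 1 library share its depth and composition. The 15 members called lower in H1993 were also called lower in A549, as all 47 were there, and 3.9% of all genes were lower in both. ECT2 was the member with the smallest decrease in A549 (-1.23) and among the 6 largest decreases in H1993 (-1.32), at nearly the same log2 fold. CDC20 was among the 6 largest decreases in A549 (-6.13) and lay above no change in H1993 (0.19).

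**Figure D3:**
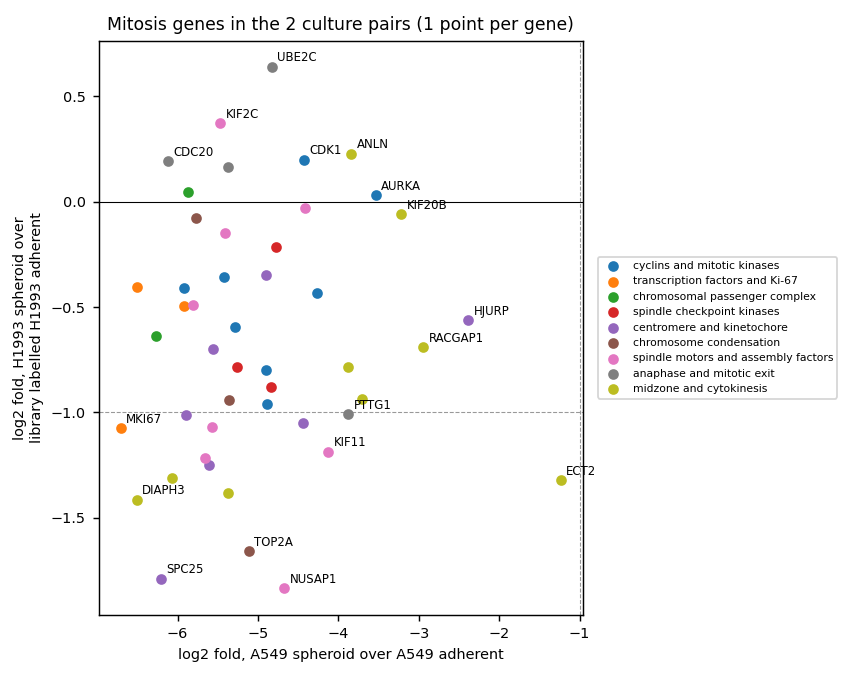
Log2 fold of each member in the H1993 pair (vertical axis) against the A549 pair (horizontal axis), coloured by role, 1 point per gene. Dashed lines mark 2-fold lower. ECT2 lies alone at the right at -1.23 in A549, and UBE2C at the top at 0.64 in H1993.

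Both lines together allow 1 test over samples, with 2 libraries per culture and line as a term, which leaves 1 residual degree of freedom. edgeR's quasi-likelihood test called 0 of 15273 genes at an adjusted p under 0.05, and 1258 genes (8.24%) and 17 members had an unadjusted p under 0.05. All 47 members had a log2 fold below 0, with a median of -2.85. With all 4 libraries and no term for line, all 47 were again below 0 and the median was -1.78. Fits that leave out 1 library also have no term for line, so they compare with that median and not with -2.85. Without the A549 spheroid library, and with no term for line, 41 members lay below 0 and the median was -0.87. In the same kind of fit all 47 lay below 0 and the median was -1.54 without A549 adherent, -5.28 without H1993 spheroid and -1.92 without the library labelled H1993 adherent. The lowest adjusted p among members was 0.411, for NUSAP1 (log2 fold -3.25, lower in both lines), by edgeR's test. DESeq2 with the same terms called 591 genes (3.87%), 28 of them members, with adjusted p-values of members between 0.000657 and 0.311. Without the H1993 spheroid library and with no term for line, edgeR called 41 members and 158 genes (1.03%), and without the filter on low counts it called 1 member, NUSAP1, and 173 genes (0.684%).

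Within spheroid culture nearly all members differed between the 2 lines. H1993 spheroids were higher than A549 spheroids in 45 of 47 members, against 18% of all genes higher and 19.1% lower, with a median log2 fold of 4.30. CDC20 showed the largest difference, with 1247 reads in H1993 spheroids, against 19 in A549 spheroids (6.01), followed by MYBL2 (5.93) and KIF2C (5.87). The 2 exceptions were ECT2, with 69.6 TPM in H1993 spheroids, against 68.9 TPM in A549 spheroids but a log2 fold of TMM-scaled reads of -0.15, so that its direction depended on the scale, and HJURP, with 35.0 TPM against 23.8 TPM (0.39). This comparison shares its libraries with the culture comparisons above and is no separate support for them.

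In adherent culture the 2 libraries were close. The library labelled H1993 adherent over A549 adherent cells gave a median log2 fold of -0.26, with 1 member lower and 0 higher, against 5.49% of all genes lower and 6.94% higher. The 1 member was HJURP, with 957 reads in the library labelled H1993 adherent, against 2367 in A549 adherent cells (-1.43, interval -1.55 to -1.33). The highest was NUSAP1 (0.14). Next lowest after HJURP came KIF23 (-0.72), and KIF18B (-0.63) and FOXM1 (-0.60) followed, ahead of PRC1 (-0.59) and CCNB2 (-0.57). KIF23, PRC1 and CCNB2 lie on chromosome 15 from the start of CCNB2 (position 59105078, hg38) onwards, where 195 other genes had a median log2 fold of -0.30, against -0.03 over 10502 genes. BUB1B (-0.13) and NUSAP1, which lie before that position, are beside 153 other genes with a median of -0.13. What sets these values was not tested.

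Intron reads come largely from unspliced transcripts and give another readout of the same genes, and they were far fewer. Among 46 members with at least 20 intron reads in the higher library, 45 were at least 2-fold lower in A549 spheroids, a rule that 17.7% of all genes measured in this way met, while 6.2% were higher. Their intron reads summed to 710 in A549 spheroids, against 7352 in A549 adherent cells, and the median log2 fold was -4.28, against -5.32 for exon reads of the same genes. With a prior count of 0.5 in place of 2 the intron median was -4.78, since the prior count shrinks folds that rest on few reads. Exon and intron folds had a Pearson correlation across members of 0.46. The 1 member not called was CENPA, with 152 intron reads in A549 spheroids, against 283 in A549 adherent cells (-0.95), and its listed span overlaps the gene SLC35F6 on the same strand, whose reads cannot be told apart from it here.

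The intron folds of ECT2 and HJURP in A549 stood beside their exon folds as follows. ECT2 had 193 intron reads in A549 spheroids, against 392 in A549 adherent cells (-1.08), and in the H1993 pair 157 against 416 (-1.21), next to exon log2 folds of -1.23 and -1.32. HJURP had 124 intron reads in A549 spheroids, against 1005 in A549 adherent cells (-3.06), and was the only member whose intron interval lay below its exon interval in A549. The intron interval lay above the exon interval in 5 members, CENPA, KIF15, KIF23, PLK1 and SPC25. For PLK1 the intron log2 fold was -3.07, from 8 intron reads against 79, next to -5.92 in exons. KIF15 and SPC25, like CENPA, overlap expressed genes. TMEM42, on the strand of KIF15, had 257 exon reads in A549 spheroids, against 157 in A549 adherent cells. NOSTRIN, opposite SPC25, had 702 against 205. The part of these overlaps in the intron folds was not tested. Between spheroids, 39 of 43 measured members were at least 2-fold higher in introns in H1993 than in A549 and 2, ECT2 and CENPA, lay below 0, against 28.9% of all genes higher and 11.7% lower. Between adherent libraries 1 of 46 was called in introns, HJURP, with 346 reads in the library labelled H1993 adherent, against 1005 in A549 adherent cells (-1.66), where 3.78% of all genes were lower and 6.15% higher.

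In the H1993 pair 44 members were measured in introns, 13 lower and 0 higher, against 18% of all genes lower and 16.7% higher. Intron reads summed to 3501 in H1993 spheroids, against 6226 in the library labelled H1993 adherent, and the median log2 fold of -0.69 was close to that of exon reads, -0.67. Exon and intron folds had a Pearson correlation across members of 0.78. UBE2C was highest in introns too, with 153 reads in H1993 spheroids, against 95 in the library labelled H1993 adherent (0.86), and TOP2A was lowest (-1.65). MYBL2 had more intron reads in H1993 spheroids (0.37) and fewer exon reads (-0.41). KIF18B was at -1.46 in introns and -0.49 in exons.

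**Figure D4:**
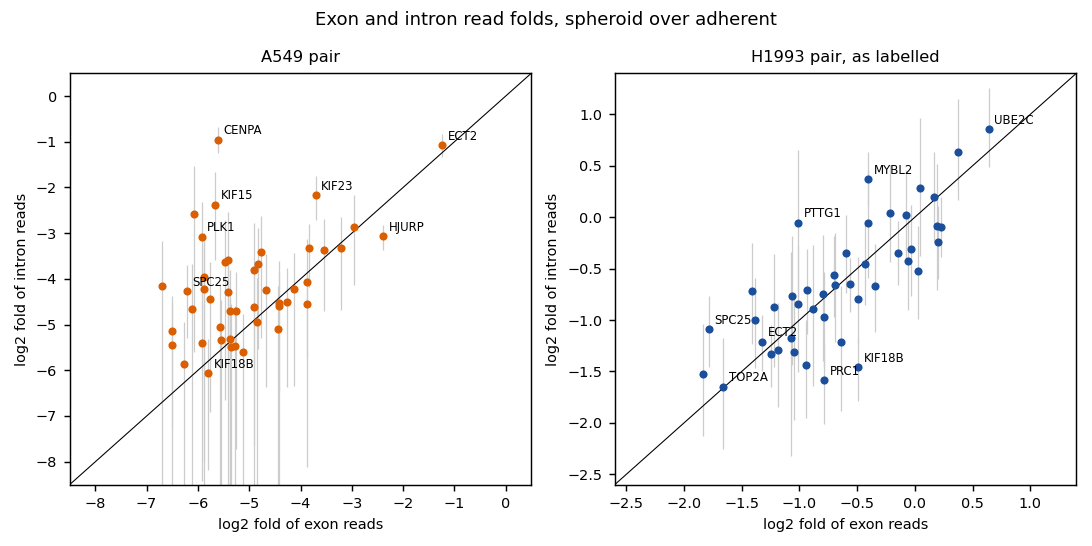
Log2 fold of intron reads (vertical, with 95% counting intervals, which run off the axis for genes with few reads) against exon reads (horizontal) for members with at least 20 intron reads, in the A549 pair (left) and the H1993 pair as labelled (right). The line marks equal folds. In A549 CENPA lies far above the line and ECT2 on it, and in H1993 UBE2C is highest on both axes.

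The printed promoters can be read beside these folds. Members with and without CHR letters had median log2 folds of -5.36 and -5.42 in A549, and of -0.94 and -0.60 in H1993. ECT2 and HJURP, the members with the smallest decreases in A549, both have CHR letters and CCAAT boxes, as PLK1, MKI67 and CCNB2 do. The A549 log2 folds of all members whose searched windows hold no CHR letters were as follows. DIAPH3 and MYBL2 were at -6.51, AURKB at -6.27, CCNA2 at -5.42, NEK2 at -5.28, CDC25C at -4.91 and BUB1 at -4.78. Only TTTGAA and TTTAAA were searched, so a CHR spelled otherwise would be missed. Whether the element bears on these folds was not tested. For AURKB the window lies inside the gene's listed span, so whether a CHR lies upstream of that span is not known here.

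Related genes outside the 47 were set beside them. Of all genes, 10.3% were lower in the A549 pair and 12.4% higher. Another 38 genes with mitotic peaks of expression, such as the spindle pole gene ASPM and the microtubule gene TROAP, were all lower in A549 spheroids, with a median log2 fold of -4.43, and TROAP was at -5.98. The H1993 pair had 11 of the 38 lower and 0 higher, the median being -0.54, and the kinase gene MELK had the largest decrease (-2.02). All 24 DNA replication genes were lower in A549 spheroids, with a median of -3.24, and MCM10 was the lowest (-6.51). In the H1993 pair 5 of them were lower, among them the sliding clamp PCNA (-2.19), and 1 was higher, MCM7 (1.15), next to 18% and 17% of all genes.

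Further lists held genes that work in mitosis beside the members, some of them in the same complexes. In the A549 pair 10.3% of all genes were lower and 12.4% higher. Of 15 core subunits of the anaphase-promoting complex and its activator FZR1, none was called in A549 (median log2 fold -0.37). The members CDC20 and UBE2C, which act with that complex, were at -6.13 and -4.83. Cohesin had 2 of 9 lower in A549, SMC3 (-1.44) and SMC1A (-1.35), with a median of -0.59. Of 12 constitutive centromere and kinetochore genes 3 were lower in A549, led by DSN1 (-2.11), with a median of -0.66, next to -5.56 for the 7 members of the kinetochore list. The 6 other condensin subunits were all lower, with a median of -2.27, next to -5.77 for NCAPH and -5.36 for NCAPG. In the H1993 pair, where 18% of all genes were lower and 17% higher, the anaphase-promoting complex had 1 of 15 lower, ANAPC15 (-1.25), and 1 higher, ANAPC2 (1.01). Cohesin had 1 of 9 higher, WAPL (1.09), and the other condensin subunits 1 of 6 lower, NCAPD2 (-1.76). Constitutive centromere and kinetochore genes had 3 of 12 lower, CENPB (-1.54), NSL1 (-1.31) and CENPS (-1.28). Their medians were 0.13, 0.25, -0.21 and -0.05 in that order.

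Regulators upstream of the members were split, next to 10.3% of all genes lower and 12.4% higher in the A549 pair. Among 20 MuvB, RB and E2F genes 9 were lower in A549 spheroids, including the late E2F repressors E2F7 (-5.46) and E2F8 (-5.19), MYBL1 (-4.99), E2F2 (-4.60), RBL1 (-3.02) and the MuvB subunit LIN9 (-2.01), and the median was -0.77. None of these 20 was lower in the H1993 pair, and 1 was higher, MYB (1.27). Among 14 entry inhibitors and phosphatases 3 were lower in A549, PKMYT1 (-6.05), which restrains CDK1, CDC25A (-3.55) and MASTL (-2.27), and the median was -0.47. In the H1993 pair the same list had 2 lower and 1 higher, CDC14A (-2.79), CDC25B (-1.10) and CDC14B (1.42), again next to 18% and 17% of all genes.

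**Figure D5:**
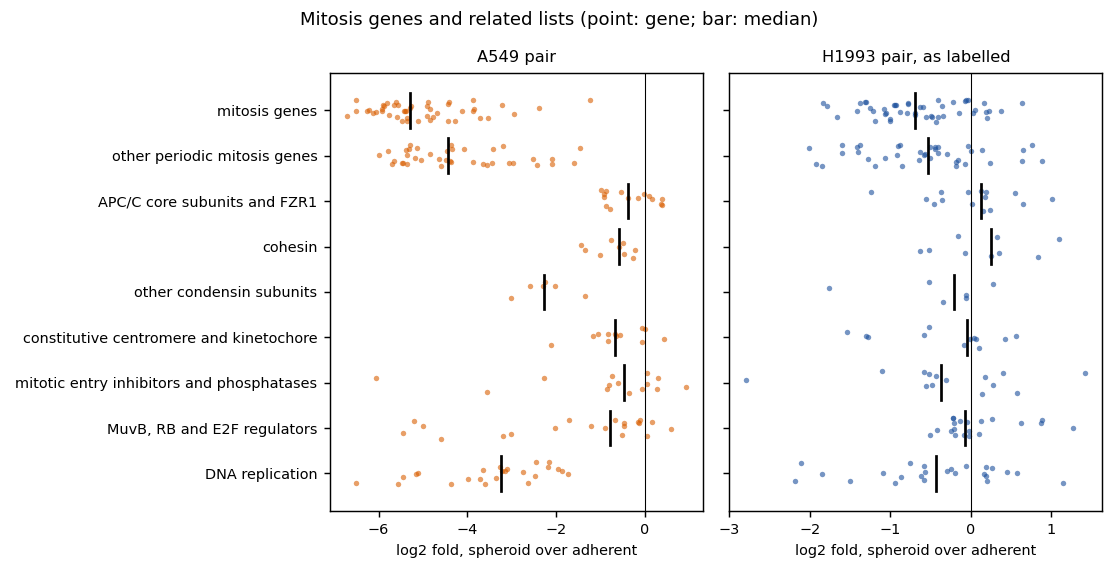
Log2 folds, spheroid over adherent, of the 47 mitosis genes and of 8 related lists in the A549 pair (left) and the H1993 pair as labelled (right), 1 point per gene with the median as a bar, on axes of different width. In A549 the medians of the mitosis genes (-5.28), other periodic genes (-4.43) and DNA replication genes (-3.24) are the lowest, followed by the other condensin subunits (-2.27).

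Reads of a few members can be shared with other sequences. Uniquely mapped reads made up at least 99% of exon reads in every library for 42 members, and the lowest share was 76.9% for BUB1B, followed by 80.0% for CCNB2. The listed spans of 23 members overlap another gene, and for 9 of these the other gene had at least 100 exon reads in some library, so their values, intron reads above all, are less certain. They are ANLN, CCNA2, CDC25C, CENPA, FOXM1, KIF15, KIF20A, NCAPG and SPC25.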

How the data were processed

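Each of the 4 samples was 1 stranded mRNA library, per the labels' protocols, and groups were taken from the labelled line and culture. Per the submitters' processing notes the build was hg38, with the aligner, counting tool and use of strand not given in the sources used here. Per the file headers, the authors deposited whole-number read counts over exons, introns, genes and junctions. The deposited TPM values scale reads by exon length and library. The deposited RPKM values were used only in an alternative, for the members' summed level in spheroids as a percent of that in adherent culture.

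Exon counts were scaled by TMM in edgeR 4.0.16 (R 4.3.3) after filterByExpr. A prior count of 2 entered each log2 fold, and intervals are exact Clopper-Pearson intervals at 95% of the 2 counts. A gene was called at 2-fold or more with an interval excluding no change. Reads are not independent molecules after PCR, so intervals cover counting error only, and 3 reads correspond to between 0.173 and 0.196 CPM. Over both lines glmQLFit and glmQLFTest were run with Benjamini-Hochberg adjustment, with DESeq2 1.42.0 as the alternative. No label says that libraries came from separate cultures. With line and culture as terms, the 1 residual degree of freedom is the difference between the culture folds of the 2 lines. The p-values are set against that difference and not against a spread between replicate cultures. The edgeR fit and the call rule, but not DESeq2, were also run on simulated data.

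The members and lists were chosen with earlier results of these data known, and lists are described by counts and medians. Any member could be named, with full values for the extremes of each role list and for members whose direction differed between lines, and of other lists at most 6 genes each with the largest folds and at least 100 reads. Promoters are RefSeq windows of GRCh38.p14, matched by symbol, with the first listed window of each gene. Other scalings, filters, prior counts, read types and a fit without each library were tried, and a fit without mitochondrial genes was added after seeing the data.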

Additional observations from a re-analysis of the deposited data

Results flagged for a closer look

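For 6 members the spheroid over adherent log2 fold in the H1993 pair, as labelled, was opposite in sign to that in the A549 pair, with intervals on either side of no change. They were UBE2C (0.64 in H1993 and -4.83 in A549), KIF2C (0.37 and -5.47), ANLN (0.23 and -3.84), CDK1 (0.20 and -4.43), CDC20 (0.19 and -6.13) and ESPL1 (0.17 and -5.38). Each line has 1 library per culture and the difference between lines was not tested. In all 10 alternatives the H1993 log2 fold of these 6 genes stayed above 0, with the lowest value of 0.10 for ESPL1 and the highest of 0.71 for UBE2C. The interval of ESPL1 held no change under scaling by library size alone, and the TPM alternative has no interval. None of the 6 was 2-fold higher, and each of them rests on the library labelled H1993 adherent, whose label is in doubt.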

How the results depend on the processing

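No value changed its direction under any alternative among those that passed the call. Of 242 main values under alternatives, 226 stayed within the limits set and 16 moved. With at least 100 reads in the higher library, 1228 genes were higher in the A549 pair, and in the adherent comparison 427 were lower and 510 higher, since fewer genes were counted. With deposited TPM on the log2(TPM + 1) scale, which understates folds of low genes, 1224 genes were higher in the A549 pair, 599 were higher in the adherent comparison, and the members' medians were -4.54 in the A549 pair and 3.63 between spheroids. Over both lines, edgeR without the filter called 1 member and 173 genes (0.684%), and DESeq2 called 28 members and 591 genes. Leaving out 1 library at a time, with no term for line and the lone library taken to vary like the others, gave between 0 and 41 members and between 0 and 158 genes, and both upper values came without the H1993 spheroid library. With at least 50 intron reads, 25 members were higher in H1993 spheroids than in A549 spheroids, since fewer were measured, and with a prior count of 0.5, 2 members were lower in introns in the adherent comparison. In the last 150 bases of the promoter window 2 members held E2F letters. Apart from the cases with fewer genes, the cause was not tested.

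In the H1993 pair calls near 2-fold depended on scaling. Scaling by library size alone added NCAPG, CCNB2 and KIF23, total gene reads added NCAPG and lost PTTG1, and TPM lost CENPF, CENPE, PTTG1, MKI67 and DLGAP5. Library size alone moved the median of all genes in the A549 pair to -0.11. The fit over both lines pairs libraries by line, and no pairing by replicate was possible beyond that with 1 library per group. With no replicate block, that is without the term for line, it called 0 members, with a median log2 fold of -1.78. Depth limits the 16 members with fewer than 20 reads in A549 spheroids, whose folds have wide intervals.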
